A study of Homo sapiens and Mus musculus with 36 samples.

Results

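Mitosis is run by a set of genes that are transcribed together late in the cell cycle, and 35 of them were followed here: cyclins and CDK1, mitotic kinases, the spindle checkpoint, the anaphase-promoting complex (APC) with its partners, kinesin motors, kinetochore proteins, spindle and cytokinesis proteins, TOP2A and MKI67. They were taken as a list of symbols, and each was represented by 1 probe set, the one with the highest mean over the arrays of its platform. All 35 had a named probe set among the 19775 genes of the human arrays. In mouse liver, 33 of the 35 were measured among 18193 genes, and Ccnb1 and Kif4a were not named in the annotation used.

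The study measured RNA on Affymetrix 3′ expression arrays in 36 samples, in work on an adverse outcome pathway of cholestatic liver injury. Livers came from 12 Sv129 mice at 6 weeks after surgery. In 6 mice the common bile duct had been tied off (CBDL), and in 6 sham-operated mice it had been exposed but not tied. Cultured HepaRG cells filled the other 24 arrays. This hepatoma line of human origin can form hepatocyte-like and biliary-like cells, and it was thawed already differentiated and treated from day 7 after seeding. They formed 8 groups of 3 arrays, all after 72 h: vehicle control, a bile acid mix concentrated 50 times, atazanavir at 60 µM, cyclosporin A at 20 µM, nefazodone at 30 µM, and each drug at the same dose together with the mix. Atazanavir is an HIV protease inhibitor, cyclosporin A an immunosuppressant and nefazodone an antidepressant. The HepaRG line comes from a single tumour, and the series text says that 3 batches of cells were used. The age of the mice is not given in the sources used here, and no label says that replicates with the same number share a batch.

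Entry into mitosis depends on the kinase CDK1 bound to cyclin A or cyclin B, switched on by phosphatases of the CDC25 family and supported by the Aurora and Polo kinases. Kinetochores then tie chromosomes to the spindle, kinesins and microtubule-associated proteins shape that spindle, and the checkpoint kinases hold back the APC until every chromosome is attached. Hepatocytes of an adult liver seldom divide, and differentiated hepatoma cells divide less than growing ones, so these transcripts are commonly read as a measure of how many cells are cycling.

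Promoters of such genes are known for a short element, the cell cycle genes homology region (CHR), which is bound by the DREAM and MuvB complexes, and for CCAAT boxes bound by NF-Y. RefSeq promoters of build GRCh38.p14, reaching from 250 bases before to 50 bases after the annotated start, were available for 29 of the 35 genes as 34 entries, because 3 genes had several. Those of TTK, BIRC5, AURKA, UBE2C, TPX2 and PBK were not used here. The letters TTTGAA (CHR) were present on either strand in 24 of the 34 entries, against 15.2% of all 35116 promoters. The letters CCAAT were present in 26 of the 34, against 34.6%, and both in 20 of the 34, against 5.9%. In the 120 bases just before the start, the CHR letters were found in 15 entries (5.70% of all promoters), CCAAT in 22 (20.4%) and both in 12 (1.27%). Both are short, so a match describes the sequence and is not evidence of binding. The windows below run from 120 bases before the start to the last base before it. They were chosen by hand to show cyclins, the APC activator, a kinase, a motor, a spindle protein and the proliferation marker. All but that of CCNB1 hold both the CHR and the CCAAT letters, against 12 of the 34 entries, so the printed windows do not represent the list. Lower case is sequence, and capitals mark TTTGAA or CCAAT, including their complements TTCAAA and ATTGG. The CHR and CCAAT letters overlap in MKI67. CCNB1 (chr5:69167030-69167149, plus strand) has 2 CCAAT boxes and no TTTGAA. Only these exact CHR letters were searched, so other forms of the element were not examined. CCNB2 (chr15:59105026-59105145, plus strand), CDC20 (chr1:43358861-43358980, plus strand), PLK1 (chr16:23678769-23678888, plus strand), KIF23 (chr15:69414229-69414348, plus strand), PRC1 (chr15:90994536-90994655, minus strand) and MKI67 (chr10:128126424-128126543, minus strand) have both.
CCNB1: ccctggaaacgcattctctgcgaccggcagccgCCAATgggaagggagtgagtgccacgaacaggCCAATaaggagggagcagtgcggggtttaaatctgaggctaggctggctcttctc
CCNB2: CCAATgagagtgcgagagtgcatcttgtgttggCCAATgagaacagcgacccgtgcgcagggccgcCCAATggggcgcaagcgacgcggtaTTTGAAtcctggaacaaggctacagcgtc
CDC20: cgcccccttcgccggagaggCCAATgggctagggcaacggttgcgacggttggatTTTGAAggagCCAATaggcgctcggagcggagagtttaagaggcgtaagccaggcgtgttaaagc
PLK1: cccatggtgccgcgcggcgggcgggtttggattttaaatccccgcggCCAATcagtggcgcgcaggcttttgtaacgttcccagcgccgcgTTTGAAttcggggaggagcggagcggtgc
KIF23: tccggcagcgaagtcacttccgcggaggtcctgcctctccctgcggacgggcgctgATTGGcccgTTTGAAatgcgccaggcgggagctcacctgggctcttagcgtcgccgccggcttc
PRC1: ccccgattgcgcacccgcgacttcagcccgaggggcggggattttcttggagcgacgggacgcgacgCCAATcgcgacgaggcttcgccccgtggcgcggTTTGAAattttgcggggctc
MKI67: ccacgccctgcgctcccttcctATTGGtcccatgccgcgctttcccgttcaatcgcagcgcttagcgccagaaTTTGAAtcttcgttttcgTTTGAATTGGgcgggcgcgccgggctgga

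**Figure D1:**
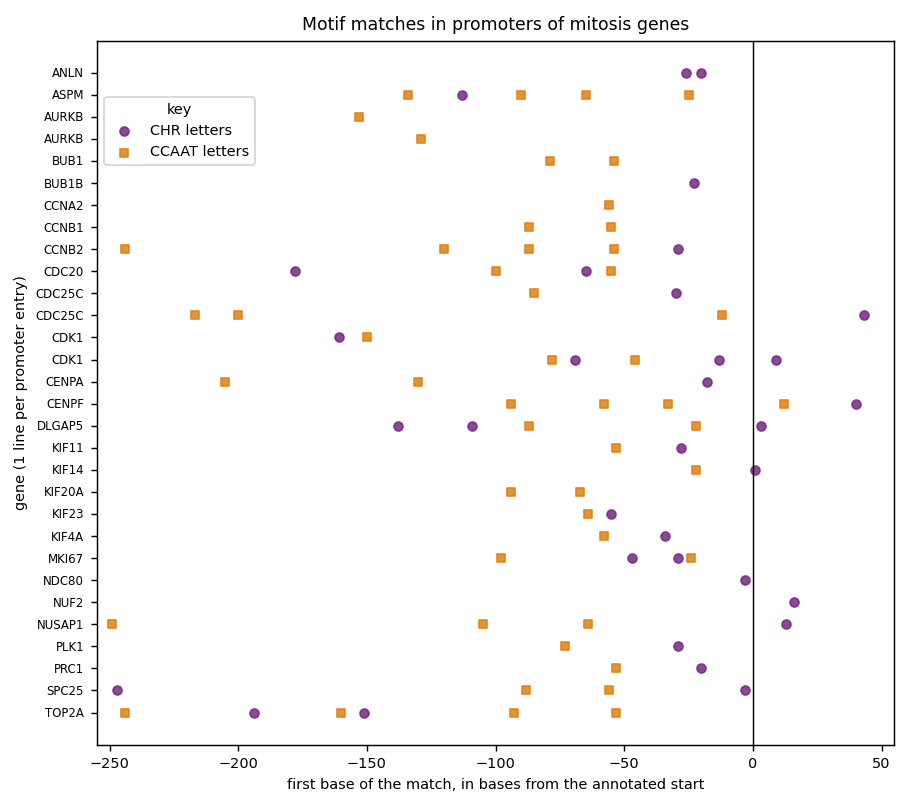
Each line is a RefSeq promoter entry of a mitosis gene that held at least 1 match (30 of the 34 entries), and the x axis gives the first base of each match in bases from the annotated start. Circles are CHR letters and squares are CCAAT letters on either strand, and most squares lie within 120 bases before the start.

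All values below are log2 levels as the authors deposited them, normalised with robust multi-array average (RMA), so a difference of 1 is 2-fold. A level depends on the probes of its gene, and levels of different genes were therefore not compared. A difference passed when its adjusted p, from limma with Benjamini-Hochberg adjustment over all genes of the comparison, was under 0.05. The arrays carry no detection call, and the dimmest 1 in 3 genes had mean levels up to 4.27 on the HepaRG arrays and up to 5.40 in mouse. On the mouse side, 3 arrays stood apart. Sham 1 had high levels of the mitosis genes, described with the mouse results. Sham 2 had a mean level of 8.77 over the 9 measured intestinal epithelium markers, against 5.38 to 5.59 on the other sham arrays, and CBDL 1 had a mean level of 8.03 over 9 neutrophil markers, against 5.61 to 5.91 on the other ligated arrays. Array medians over all probe sets lay between 4.24 and 4.38 in HepaRG cells and between 5.38 and 5.49 in mouse.

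In HepaRG cells the mitosis genes moved together, down with cyclosporin A and nefazodone and up with atazanavir. The mean level over the 35 genes was 7.91 to 8.16 on the 3 control arrays, 8.67 to 8.76 with atazanavir, 5.71 to 6.00 with nefazodone and 4.70 to 4.99 with cyclosporin A. The bile acid mix alone gave 7.52 to 7.70. Together with the mix, atazanavir gave 7.73 to 7.86, nefazodone 5.15 to 5.71 and cyclosporin A 4.06 to 4.29. The order of the group means was much the same from gene to gene. Atazanavir was the highest group for 33 of the 35 genes, cyclosporin A with the mix was the lowest for 31, nefazodone lay between control and cyclosporin A for 33, and the mix lay below control for 34. The exceptions at the top of the order were CCNB2 and UBE2C, which are described after the drugs.

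**Figure D2:**
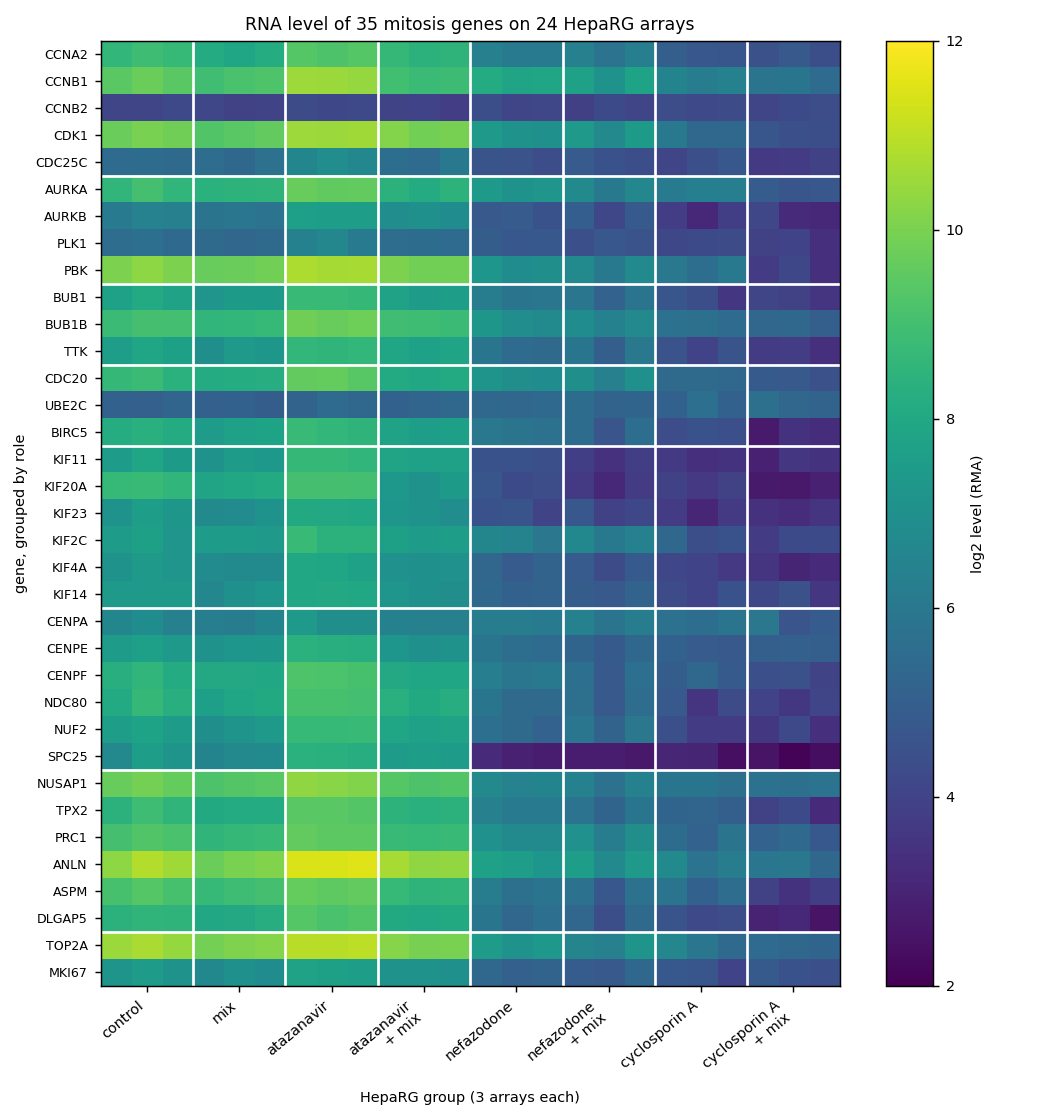
Each row is a mitosis gene, ordered by role with white lines between roles, each column is 1 of the 24 HepaRG arrays, and colour gives the log2 level on a scale from 2 to 12. Rows brighten from control to atazanavir and darken with nefazodone and further with cyclosporin A, except CCNB2 and UBE2C, which vary little.

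Cyclosporin A lowered 33 of the 35 mitosis genes, 32 of them by at least 2-fold. Of all genes tested, 18.5% were lower and 4.97% were lower by at least 2-fold. The median difference from control was -3.44, against 0.04 over all genes, and 0 were higher, against 22.2% of all genes. The mitotic kinesin KIF20A, which is needed for cytokinesis, had levels of 8.71, 8.78 and 8.58 in control cells and 3.98, 3.64 and 3.94 with cyclosporin A. It fell by 4.84 (SE 0.14, 28.6-fold, adjusted p = 5.1e-16, limma), the largest fall among the 35. For KIF20A all 3 treated arrays lay far below all 3 control arrays.

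Among the cyclins and their kinase, 4 of 5 genes fell with cyclosporin A. CDK1, the kinase that drives entry into mitosis, went from 9.723, 10.004 and 9.838 to 6.05, 5.33 and 5.40, a difference of -4.27 (SE 0.18, 19.2-fold, adjusted p = 6.3e-14, limma). CCNA2, the cyclin A gene of S phase and mitosis, fell by 3.92, and CCNB1, the main mitotic cyclin B, by 3.15 from 9.42, 9.73 and 9.44 to 6.53, 6.22 and 6.38. CDC25C, a phosphatase that activates CDK1, fell by 1.07. All 4 mitotic kinases fell: PBK (-4.23), AURKA at spindle poles (-2.51), AURKB of the chromosomal passenger complex (-2.73) and PLK1 (-1.31). The 3 spindle checkpoint kinases BUB1, BUB1B and TTK fell, with differences of -3.64, -3.32 and -3.33. Of the APC partners, the activator CDC20 fell by 3.21. BIRC5 (survivin), which belongs to the passenger complex and not to the APC, fell by 3.78.

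The 6 kinesins fell by 2.71 (KIF2C, a microtubule depolymerase) to 4.84 (KIF20A), with KIF11, the motor that separates spindle poles, at -4.10. All 6 centromere and kinetochore genes fell. SPC25, a subunit of the NDC80 complex that grips microtubules, went from 6.70, 7.58 and 7.18 to 3.07, 3.02 and 2.42, and NDC80 itself fell by 4.13. CENPA, the histone H3 variant that marks centromeres, showed the smallest fall of the 33, by 0.87 (SE 0.22, 1.83-fold, adjusted p = 0.0031, limma). The 6 spindle and cytokinesis genes fell by 3.44 (TPX2, an activator of AURKA) to 4.31 (ANLN, the anillin of the cleavage furrow). TOP2A, the topoisomerase that untangles chromosomes, fell by 4.55 (SE 0.21, 23.4-fold), and MKI67, which encodes the Ki-67 protein, fell by 2.77 from 7.17, 7.51 and 7.13 to 4.77, 4.69 and 4.03. After treatment 11 of the 35 group means lay among the dimmest 1 in 3, where a level is set largely by background. The sizes of falls that ended there depend on that floor, as for KIF20A (mean 3.85), KIF11 (3.52) and SPC25 (2.84). Other large falls ended above that range, as for TOP2A (5.99), ANLN (6.27), CDK1 (5.59) and PBK (5.89).

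Nefazodone lowered 32 of the 35 genes, 30 by at least 2-fold. Of all genes tested, 20.6% were lower and 7.26% were lower by at least 2-fold. The median difference was -2.25. KIF20A again fell most, to 4.69, 4.23 and 4.37, a difference of -4.26 (SE 0.14, 19.2-fold, adjusted p = 8.3e-16, limma). SPC25 reached 3.19, 2.92 and 2.79, a difference of -4.19 (SE 0.18, 18.2-fold). These 2 genes stood well apart from the third in order, ASPM, a spindle pole protein, which fell by 3.23. TOP2A fell by 3.22, NUSAP1 by 3.20, KIF11 by 3.13, PBK by 3.09 and ANLN by 3.07. CDK1 fell by 2.69, to 7.37, 7.11 and 7.01, MKI67 by 2.08 and CCNB1 by 1.57, to 8.15, 7.85 and 7.90. Only 2 group means were among the dimmest 1 in 3. CENPA did not pass, with a difference of -0.45 (SE 0.22, adjusted p = 0.12, limma).

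At the doses used, which differ, nefazodone left higher levels than cyclosporin A for 29 of the 35 genes (19.4% of all genes tested) and lower levels for 0 (17.6%), with 0 lower also at an unadjusted p under 0.05. The median difference between the drugs was 1.13. BUB1 differed by 1.77 (SE 0.22), KIF2C by 1.61, CCNB1 by 1.58 and CDC20 by 1.58. The 6 genes that did not pass were CENPA, ASPM, SPC25, CCNB2, CDC25C and UBE2C. For SPC25 the difference was 0.13 (SE 0.18, adjusted p = 0.63, limma), with both groups far below the limit of the dimmest 1 in 3. Against atazanavir, each of the 2 drugs gave lower levels for 33 of the 35 genes (19.8% of all genes for cyclosporin A and 19.7% for nefazodone), with medians of -4.14 and -2.88.

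Atazanavir raised 26 of the 35 genes, against 22.2% of all genes tested, and lowered 0 (13.2% of all genes), with 0 lower also at an unadjusted p under 0.05. The median rise was 0.78. For 33 genes all 3 atazanavir arrays lay above all 3 control arrays, against 28.2% of all genes. The rise reached 2-fold in 6 genes, against 1.93% of all genes. AURKB went from 6.17, 6.45 and 6.36 to 7.64, 7.57 and 7.59, a rise of 1.28 (SE 0.22, 2.42-fold, adjusted p = 8.5e-05, limma). The other 5 were CDC25C at 1.23, SPC25 at 1.16, NUF2, which pairs with NDC80, at 1.07, KIF2C at 1.06 and KIF11 at 1.02.

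All 4 mitotic kinases and all 3 checkpoint kinases rose with atazanavir. PLK1 and AURKA rose by 0.86 each, PBK by 0.58, TTK by 0.89, BUB1 by 0.86 and BUB1B by 0.79. Of the cyclins, CCNB1 rose by 0.94 from 9.42, 9.73 and 9.44 to 10.5, 10.5 and 10.4, CCNA2 rose by 0.58, and CDK1 by 0.69 (SE 0.18, 1.61-fold). The genes that did not pass include some of the most used proliferation markers. MKI67 differed by 0.42 (SE 0.17, adjusted p = 0.055, limma) with 7.76, 7.69 and 7.62, and TOP2A by 0.41 (adjusted p = 0.14) with 10.93, 10.91 and 11.02. BIRC5, PRC1, ASPM, CENPA and KIF20A also missed the threshold, with differences of 0.35 to 0.50 and groups that did not overlap. MKI67 and TOP2A passed in the fit on the 2 groups alone, with adjusted p values of 0.0147 and 0.00866, and with the mean of all probe sets, with 0.00556 and 0.0322.

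Beside these changes, markers of hepatocyte function fell with each drug. Of the 11 hepatocyte markers measured, 11 fell with atazanavir, 11 with nefazodone, 10 with cyclosporin A and 4 with the mix. Of all genes tested, 13.2%, 20.6%, 18.5% and 3.37% fell in these comparisons, in that order. Rises were seen in 22.2% of all genes with atazanavir, 22.2% with cyclosporin A and 4939 of 19775 genes with nefazodone. Their mean level was 11.64 to 11.995 on control arrays, 8.71 to 9.17 with atazanavir, 9.08 to 9.69 with nefazodone and 9.80 to 10.6 with cyclosporin A. Of the 10 biliary and progenitor markers measured, 0 rose and 2 fell with atazanavir, 4 rose and 4 fell with cyclosporin A, and 4 rose and 3 fell with nefazodone. Of 11 stellate and fibroblast markers, 4 fell and 2 rose with atazanavir, 4 fell with cyclosporin A and 5 fell with nefazodone. Their mean level was 6.45 to 6.70 on control arrays, 5.84 to 6.31 with atazanavir, 5.23 to 5.59 with cyclosporin A and 5.26 to 5.48 with nefazodone. Of 8 neutrophil markers 2 fell with each drug, a count not far from the shares of all genes. Their mean level was 5.09 to 5.13 on control arrays, 4.49 to 4.85 with atazanavir, 4.11 to 4.38 with cyclosporin A and 3.86 to 3.998 with nefazodone. The part of cell identity in the mitosis gene changes was not tested. In bulk RNA, fewer cycling cells and less RNA per cycling cell cannot be told apart.

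**Figure D3:**
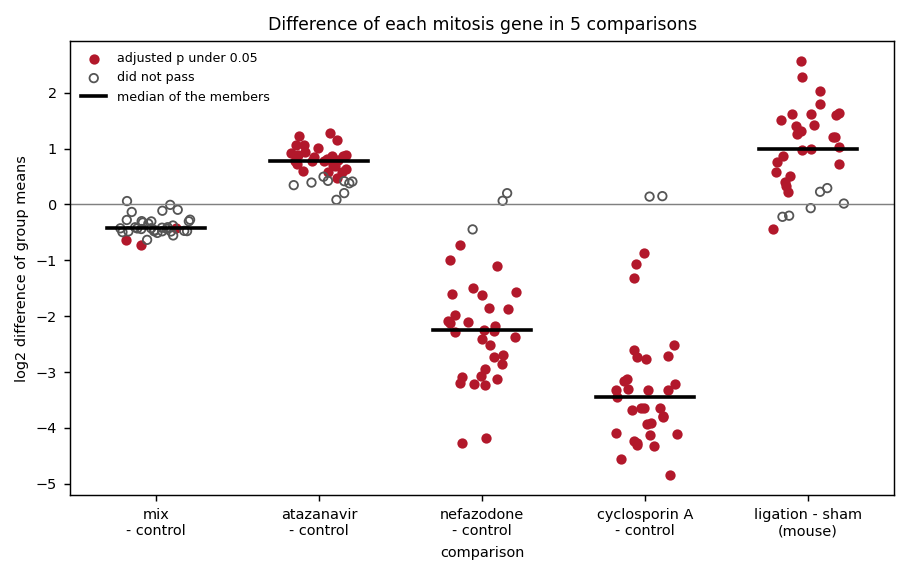
Each point is a mitosis gene, the y axis is the log2 difference of group means, filled points passed at an adjusted p under 0.05, and bars are medians. Cyclosporin A has a median of -3.44, nefazodone -2.25, the mix -0.43, atazanavir 0.78 and ligated mouse liver 1.00.

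The bile acid mix alone had a small effect in a common direction. Levels were lower than control for 34 of the 35 genes, and for 27 all 3 treated arrays lay below all 3 controls, against 11.2% of all genes. The adjusted test was passed by 3 of the 35 genes (3.37% of all genes tested were lower). KIF20A fell by 0.72 (SE 0.14, 1.65-fold, adjusted p = 0.0018, limma), to 7.85, 7.94 and 8.12. CCNA2 fell by 0.64 (adjusted p = 0.0036) and NUSAP1, a spindle microtubule protein, by 0.42 (adjusted p = 0.033). The median difference was -0.43. At an unadjusted p under 0.05, 22 were lower. CDK1 with 9.29, 9.43 and 9.60 differed by -0.42 (adjusted p = 0.16), CCNB1 by -0.43 (0.078), TOP2A by -0.48 (0.17) and MKI67 by -0.41 (0.14). The count depended on the fit: 15 genes passed in the fit on these 2 groups alone, and 4 to 6 under the other alternatives tried except leaving out arrays. NUSAP1 lost its call without control 1, 2 or 3, without bile acid mix 1 or 2 and with the mean of all probe sets (adjusted p = 0.10, limma). With that mean CCNB1 and MKI67 passed (adjusted p = 0.023 and 0.011), and TOP2A passed in the fit on the 2 groups alone (adjusted p = 0.030).

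Adding the mix to atazanavir lowered 33 of the 35 genes relative to atazanavir alone, 9 of them by at least 2-fold. Of all genes tested, 10.3% were lower and 0.329% were lower by at least 2-fold. The median was -0.92. KIF20A went from 9.06, 9.04 and 9.01 to 7.34, 7.09 and 7.43, a difference of -1.75 (SE 0.14, 3.36-fold, adjusted p = 4.2e-08, limma). CCNB1 fell by 1.59 to 8.97, 8.80 and 8.86, CDC20 by 1.49 and AURKA by 1.26. The mean of the group with both agents therefore came to lie below that of control for 26 of the 35 genes, although atazanavir alone lay above it. This is an order of means that was not tested against control, and some gaps were small, with PLK1 at 5.535 against 5.537. MKI67 fell by 0.60 and TOP2A by 0.91. Hepatocyte markers moved the other way, with 8 of 11 higher than with atazanavir alone, against 1769 of all 19775 genes.

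Adding the mix to cyclosporin A lowered 19 of the 35 genes further, against 18.4% of all genes tested. The median was -0.50. PBK, a kinase of dividing cells, went from 6.01, 5.63 and 6.02 to 3.75, 4.15 and 3.38, a difference of -2.13 (SE 0.18, 4.37-fold, adjusted p = 6.6e-09, limma). ASPM fell by 1.78, DLGAP5, a spindle assembly protein, by 1.51, AURKA by 1.47, TPX2 by 1.36, BIRC5 by 1.28, CDK1 by 1.08 and KIF20A by 1.07. With both agents, 20 of the 35 group means lay among the dimmest 1 in 3, where further falls are hard to measure. Hepatocyte markers fell in the same comparison, 10 of 11, with a mean level of 9.80 to 10.6 with cyclosporin A and 7.96 to 8.43 with both agents. The mean over 10 biliary and progenitor markers went from 5.98 to 6.11 down to 5.49 to 5.51. The part of these changes in the mitosis gene falls was not tested. Adding the mix to nefazodone lowered 8 of the 35, against 7.92% of all genes tested, with a median of -0.25. These were KIF20A (-0.91), KIF11 (-0.79), AURKA (-0.75), CENPF (-0.72), TOP2A (-0.63), BIRC5 (-0.60), TPX2 (-0.56) and CENPE (-0.53). The second array of nefazodone with the mix was low for many genes: KIF20A read 3.71, 3.13 and 3.73. The count was 5 without nefazodone 1, 4 without that second array and 13 without the third. CENPF missed the threshold without that second array, at -0.44 (adjusted p = 0.059), and in the fit on the 2 groups alone (adjusted p = 0.079).

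Whether the mix acted differently in the presence of a drug was tested as an interaction, the effect of the mix with the drug minus its effect without. With atazanavir, 10 of 35 interactions were negative and passed (7.29% of all genes), and 0 were positive (5.07%), with 0 also at an unadjusted p under 0.05. The effect on CCNB1 was -0.43 without and -1.59 with atazanavir, an interaction of -1.16 (SE 0.21, adjusted p = 0.001, limma). CDC20 had -1.06, CDC25C -1.06, KIF20A -1.03 and AURKA -0.96, followed by KIF2C, CENPF, CENPE, PLK1 and BUB1B. For CCNA2 and CDK1 the interaction was -0.13 (adjusted p = 0.77) and -0.15 (adjusted p = 0.80). The count was 6 without control 3.

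With cyclosporin A, 6 of 35 interactions passed, all negative, a share close to the 15.0% of all genes. These were PBK at -1.75 (SE 0.25, adjusted p = 2.1e-05, limma), ASPM at -1.50, AURKA at -1.16, DLGAP5 at -1.10, TPX2 at -0.87 and CDC25C at -0.67. With nefazodone, 0 interactions passed in limma (4.57% of all genes positive and 7.31% negative). At an unadjusted p under 0.05, 2 were higher and 1 lower. Of the named interactions, CDC25C with atazanavir and ASPM with cyclosporin A missed the threshold when all probe sets of a gene were averaged, with values of -0.44 and -0.57.

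**Figure D4:**
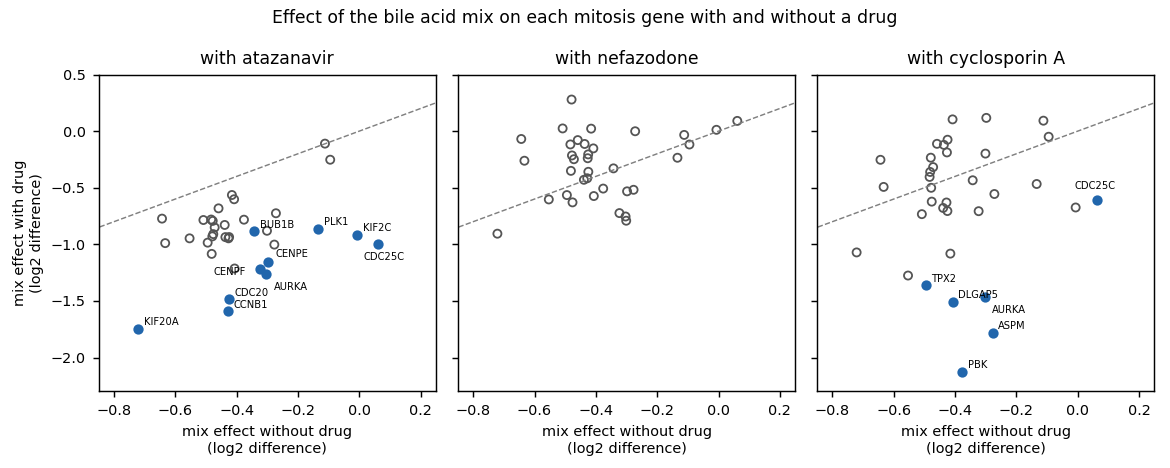
Each point is a mitosis gene, with the log2 effect of the bile acid mix without a drug on the x axis and with the drug on the y axis, and the dashed line marks equal effects. Filled points have an interaction that passed, 10 with atazanavir, 0 with nefazodone and 6 with cyclosporin A, and all lie below the line.

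In the presence of the mix, the drugs were also compared with the mix alone. Atazanavir with the mix was higher for 7 genes (15.1% of all genes) and lower for 1 (13.3%), with a median of 0.17. The count of higher genes was not far from the share of all genes. AURKB was higher by 1.05, SPC25 by 0.85, NUF2 by 0.62, TTK by 0.61, CDK1 by 0.54, CCNA2 by 0.45 and KIF11 by 0.44, and KIF20A was lower by 0.68 on the log2 scale. NUF2 lost its call without bile acid mix 1 or 2 and without any of the 3 arrays with both agents. The total count was 4 without bile acid mix 1, 5 without bile acid mix 2, and 3 and 5 without the first and the third array with both agents. Cyclosporin A with the mix was lower for 33 (25.5%) and higher for 1 (25.7%), UBE2C, with a median of -3.55. PBK was at 9.68, 9.70 and 9.87 with the mix and at 3.75, 4.15 and 3.38 with both agents, below the 4.27 limit of the dimmest 1 in 3, so the fitted difference of -5.99 depends on background. Nefazodone with the mix was lower for 32 (24.8%), with KIF20A at -4.44.

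CCNB2, another mitotic cyclin B, and UBE2C, the ubiquitin-conjugating enzyme of the APC, passed in neither direction with any of the 3 drugs against control. Whether the probe sets named for them measure these transcripts was not tested, so their flat values may not describe the genes. CCNB2 read 4.09, 4.07 and 4.22 in control cells, 4.29, 4.16 and 4.19 with atazanavir and 4.37, 4.19 and 4.28 with cyclosporin A. UBE2C read 5.11, 5.08 and 5.25 in control cells and 5.11, 5.67 and 5.10 with cyclosporin A. The CCNB2 probe set is among the dimmest 1 in 3, as are its 2 other probe sets, and UBE2C has 1 probe set. The promoter of CCNB2 printed above has the CHR letters and 3 CCAAT boxes in its 120 bases. Over all 35 genes, CCNB2 included, several probe sets measured 18 genes, and of the 33 other probe sets 19 were above the dimmest 1 in 3. All 19 had the same sign of difference as the one used in each of 4 comparisons with control.

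In the mouse, livers 6 weeks after bile duct ligation had higher levels of most mitosis genes than sham livers. Of 33 genes, 26 rose and 1 fell, against 20.5% of all genes tested that rose and 21.1% that fell. The median difference was 1.00, and 17 rose by at least 2-fold, against 3.49% of all genes. Groups did not overlap, with ligated livers higher, for 2 of the 33, Mki67 and Bub1, against 11.9% of all genes. Sham 1 overlapped with the ligated livers for most of the others.

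Sham 1 lay above the other 5 sham livers for 26 of the 33 genes, against 12.4% of all genes, by a median of 1.02 over the mean of the others. It exceeded the lowest ligated liver for 30 of 33. Its mean level over the 33 genes was 5.99, against 4.91 to 5.11 on the other shams and 5.68 to 6.48 in ligated livers. CBDL 1 and CBDL 4, at 5.83 and 5.68, lay below it. Most cell type markers were not high in it. It was above all other shams for 0 of 10 hepatocyte, 0 of 9 biliary, 0 of 10 macrophage, 0 of 9 neutrophil, 0 of 11 lymphocyte, 1 of 11 stellate and fibroblast, 0 of 7 sinusoidal, 0 of 9 intestinal and 2 of 5 erythroid markers. Of 29 replication genes it was above the others for 14.

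Mki67 rose most. Its sham levels were 4.29 at the lowest, 4.77 at the median and 7.05 at the highest, which was sham 1, and its ligated levels were 7.081, 7.900 and 7.999. The difference was 2.56 (SE 0.40, 5.90-fold, adjusted p = 0.00026, limma). Birc5 ranged from 3.47 through 4.05 to 6.59 in sham and from 5.96 through 6.94 to 7.33 in ligated livers, a rise of 2.28 (SE 0.43, 4.85-fold). Sham 1 gave the highest sham value of both genes.

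Ccnb2, unlike its human counterpart on the HepaRG arrays, was measured well above the dim range after ligation. It ranged from 4.51 through 4.89 to 6.45 in sham and from 6.37 through 7.37 to 7.60 in ligated livers, a rise of 2.04 (SE 0.31, 4.11-fold, adjusted p = 0.0002, limma). Top2a ranged from 4.41 through 4.86 to 6.30 and from 5.83 through 6.91 to 7.21, a rise of 1.79 (3.47-fold). Cdk1 ranged from 5.85 through 6.28 to 7.50 and from 7.36 through 7.87 to 8.26, a rise of 1.41 (SE 0.25, 2.66-fold, adjusted p = 0.00056, limma). For these genes only sham 1 overlapped with the ligated group, at its lower end.

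By role, all 4 measured genes of the cyclin group rose, as did all 4 mitotic kinases, with Pbk at 1.63, Aurka at 1.03, Plk1 at 0.87 and Aurkb at 0.51. All 3 checkpoint kinases rose, with Bub1 at 1.27 (SE 0.18, 2.41-fold, adjusted p = 9.4e-05, limma), Ttk at 1.00 and Bub1b at 0.23. The APC partners Cdc20 and Ube2c rose by 1.64 and 1.51. Of 6 kinetochore genes 5 rose, from 0.40 (Ndc80) to 1.42 (Cenpf), and Nuf2 differed by 0.29 (adjusted p = 0.23). Of 5 kinesins 1 rose, Kif20a at 1.61. Kif11, Kif14, Kif23 and Kif2c differed by 0.23, -0.07, 0.02 and -0.22 and did not pass. The probe sets used for Kif11, Kif14 and Nuf2, which did not pass, are among the dimmest 1 in 3. So are those used for Cdc25c, Aurkb, Bub1, Ttk, Cenpe, Ndc80, Aspm and Anln, which rose. Of the spindle genes, Nusap1, Aspm, Anln and Prc1 rose by 1.62, 1.21, 0.97 and 0.76, and Dlgap5 did not pass at -0.20.

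The single fall, Tpx2 at -0.43 (SE 0.15, adjusted p = 0.031, limma), belonged to the probe set chosen by the rule. Its other probe sets, all among the dimmest 1 in 3, differed by 0.65, 0.51 and -0.21, and the mean of all was 0.13. The Tpx2 call also ended without CBDL 1, 2 or 5 and without sham 5 or 6. Kif2c likewise had other probe sets at 1.76, 0.41 and -0.18, and Kif11 at 0.94 and -0.19. For Cdc20 the others were at 2.39 and 0.00, and the other Bub1 probe set, also dim, was at -0.04. In all, 22 mouse genes had several probe sets, and of the 4 other probe sets above the dimmest 1 in 3 3 had the same sign as the one used. The mean level in sham livers lay among the dimmest 1 in 3 for 20 of the 33 genes, and that in ligated livers for 9.

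Sham 1 was singled out by its levels of these same genes, so leaving it out widens the gap by construction, and the values without it are a description. Without sham 1, 27 of the 33 genes rose (19.3% of all genes) and 1 fell, 19 rose by at least 2-fold and the median was 1.19. Groups did not overlap for 22 genes, against 12.8% of all genes. Mki67 then differed by 2.93 (SE 0.28, 7.63-fold), Birc5 by 2.69, Ccnb2 by 2.32, Top2a by 2.05 and Pbk by 1.92. Nuf2 was among the 27, at 0.46. Without CBDL 1 and sham 2, 23 genes passed, all higher. Without sham 1, sham 2 and CBDL 1, a choice made after the data were seen, 27 passed.

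**Figure D5:**
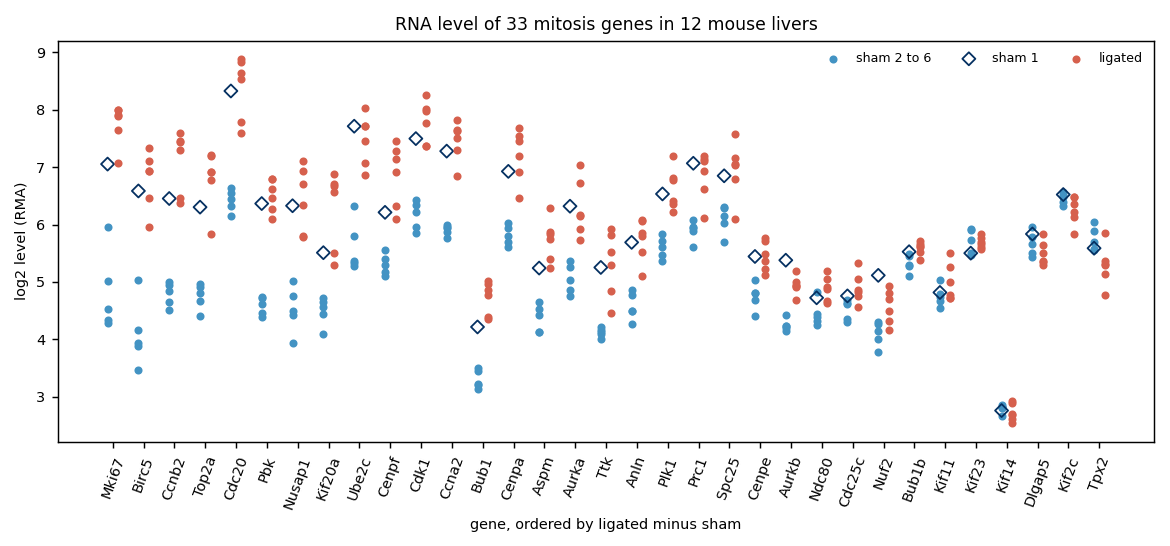
The y axis is the log2 level in each of the 12 mouse livers for 33 mitosis genes, ordered along the x axis by the ligated minus sham difference. Open diamonds are sham 1, which lies among the ligated livers (red) for many genes, and blue points are the other 5 shams.

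Markers of other cells also changed with ligation. Of the markers measured, 6 of 11 stellate and fibroblast, 6 of 10 macrophage and 4 of 9 biliary markers rose, while 1 of 10 hepatocyte markers rose and 0 fell. Of all genes tested, 20.5% rose and 21.1% fell. The mean level over the 10 macrophage markers was 7.64 to 8.11 in sham and 8.77 to 9.65 in ligated livers, and over the 11 stellate and fibroblast markers it was 7.25 to 8.01 and 8.47 to 8.90. Over the 9 biliary markers the groups overlapped, at 5.48 to 6.54 in sham and 6.44 to 7.93 in ligated livers. The highest sham value there was that of sham 2, the array with high intestinal epithelium markers. The part of stellate, macrophage and biliary cells in the mitosis gene rise was not tested. The neutrophil list had 1 of 9 higher and the lymphocyte list 1 of 11 higher and 4 lower. Of 5 erythroid markers 4 fell, with a mean level of 7.44 to 7.63 in sham and 6.87 to 7.20 in ligated livers.

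Genes that work beside the mitosis genes were counted from further lists. For comparison, 22.2% of all genes rose and 13.2% fell with atazanavir, and 22.2% rose and 18.5% fell with cyclosporin A. With nefazodone 20.6% of all genes fell and 4939 of 19775 rose. Of 26 other kinetochore and centromere genes, 21 rose with atazanavir, 23 fell and 2 rose with cyclosporin A, and 21 fell and 2 rose with nefazodone. ZWINT, a kinetochore scaffold, differed by -4.01 and -3.61 with the 2 drugs. Of 20 other spindle and cytokinesis genes, 17 rose with atazanavir, and 19 fell with each of cyclosporin A and nefazodone, CEP55 of the midbody by 4.27 with cyclosporin A. Of 22 cohesin, condensin and separase genes, 12 rose with atazanavir, and 18 and 15 fell with cyclosporin A and nefazodone, with the condensin subunit NCAPG at -3.83 and -2.75. Of 13 genes of APC subunits and their regulators, 7 rose and 2 fell with cyclosporin A, and 5 rose and 2 fell with nefazodone. With atazanavir 7 rose and 0 fell. The subunit CDC16 rose by 0.71 and 0.69, and the 2 falls with cyclosporin A were in the APC inhibitor FBXO5 (-1.55) and the APC partner enzyme UBE2S (-1.06).

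The transcription regulators of the cell cycle were mixed. Of 21, 11 fell and 5 rose with cyclosporin A, 10 fell and 6 rose with nefazodone, and 10 rose and 2 fell with atazanavir. The rises with cyclosporin A and nefazodone were close to the shares of all genes. FOXM1, an activator of mitotic genes, fell by 2.01 with cyclosporin A, and the repressor E2F8 differed by -4.02 and -4.12. Its relative E2F7 rose by 1.90 (SE 0.24) with nefazodone and by 1.42 with atazanavir. A list of 17 genes that control entry and exit holds kinase inhibitors and other brakes, and also the activators CDC25A and CDC25B. Of these 17, 10 fell and 4 rose with cyclosporin A, and 9 fell and 4 rose with nefazodone. With atazanavir 8 rose and 2 fell. The rises with cyclosporin A and nefazodone and the falls with atazanavir were close to the shares of all genes. CDC25B differed by -1.38 with cyclosporin A and by 0.93 with atazanavir. CDKN2B, an inhibitor of the G1 kinases, rose by 1.94 and GADD45A, a stress response gene, by 1.76 with nefazodone. CDKN1A, which encodes p21, rose by 0.37 with the mix alone (SE 0.07, adjusted p = 0.00062, limma).

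Replication and G1/S genes followed the mitosis genes under the drugs alone and parted from them when the mix was added to atazanavir. Of 29 measured, 28 rose with atazanavir, 26 fell with cyclosporin A, 25 fell and 2 rose with nefazodone, and 0 passed with the mix, where 3 mitosis genes did. RRM2, a subunit of ribonucleotide reductase, differed by -4.47 and -5.03 with cyclosporin A and nefazodone. When the mix was added to atazanavir, 6 of 29 fell and 1 rose, with a median of -0.14, against 33 of 35 mitosis genes with a median of -0.92. Of all genes tested, 10.3% fell. The mean level of the replication genes was 7.72 to 8.14 on control arrays, 8.84 to 9.02 with atazanavir and 8.75 to 8.81 with both agents, so it stayed above control, while that of the mitosis genes returned to 7.73 to 7.86 against 7.91 to 8.16 in control. The difference between the lists was not tested.

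In ligated liver, 17 of 29 replication genes rose and 5 fell. Cdt1 and Mcm3, which license origins, differed by 1.10 and 1.09, and Mcm10 by -1.90. Each of these has several probe sets, 3 for Mcm10, and the values are those of the brightest alone. Of 25 other kinetochore genes 11 rose and 3 fell, with Incenp at 1.11, of 21 other spindle genes 12 rose and 1 fell, and of 21 cohesin, condensin and separase genes 8 rose and 0 fell. Of 14 APC genes 9 rose and 1 fell. Of 21 transcription regulators 5 rose and 4 fell, close to the 20.5% and 21.1% of all genes that rose and fell. Of 19 genes that control entry and exit, 9 rose and 0 fell, with the antiproliferative gene Btg2 at 1.62 and the CDK inhibitor gene Cdkn2c at 1.42.

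Of the 26 genes that rose after ligation, 17 had a counterpart among the 26 that rose with atazanavir, which is 65.4% of each list. The same 26 shared 24 with the 33 that fell with cyclosporin A (92.3% and 72.7%) and 23 with the 32 that fell with nefazodone (88.5% and 71.9%). Since the HepaRG comparisons share control arrays and cover nearly all of the 35 genes, these shares describe the lists only.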

How the data were processed

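The deposited tables hold log2 values per probe set that the authors made with RMA, per the submitters' processing notes, with no version. RMA fixes a common distribution across arrays, so a shift of most genes would not be seen. Gene symbols came from GEO's annotation of the 2 platforms. Of 54675 human and 45101 mouse probe sets, 41091 and 34945 had 1 gene symbol and were used. Limma 3.58.1 in R 4.3.3 (lmFit, eBayes, 2-sided) was run on group means, in 1 fit of 12 mouse arrays (10 residual degrees of freedom) and 1 of 24 HepaRG arrays (16). Adjusted p values are Benjamini-Hochberg values over all genes of each of 17 comparisons. The fit was tested on simulated data. No label says that replicates came from separate cultures, so p values measure the spread between these samples. The genes and lists were chosen with earlier results of these data known. Named were up to 12 genes with the largest passing, non-overlapping differences against control or sham, up to 4 in other comparisons, up to 3 of each further list, and always MKI67, TOP2A, CCNB1 and CDK1. For ligation, where only Mki67 and Bub1 met the rule, the 12 largest passing differences and the single fall were added regardless of overlap, after the values were seen. The other genes were named to account for every gene of the list, after their values were seen. In 4 comparisons every same-numbered pair of arrays deviated together with r over 0.1: the mix against control (lowest r 0.190), nefazodone against control (0.108), nefazodone with the mix against nefazodone (0.130) and cyclosporin A with the mix against the mix (0.113). Alternatives were the mean of all probe sets, quantile normalisation, leaving out the dimmest 1 in 3 genes, eBayes with trend and robust settings, the replicate block, the 2 groups alone and leaving out arrays.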

Additional observations from a re-analysis of the deposited data

Results flagged for a closer look

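In groups of 6, a gap to the nearest array above 0.625 of the group's range marks an array as far from the others, and chance does this in about 1 in 20 groups. Of 30 groups examined, 10 were marked. The genes were read on the same arrays and move together, so the groups are not separate trials, and the marks fell on sham 1 and CBDL 4 only. Sham 1 was the highest sham liver for Ccna2 (0.855), Pbk (0.819), Cdc20 (0.775), Ccnb2 (0.745), Top2a (0.703), Bub1 (0.671) and Cdk1 (0.646), and for the mean level over the 33 genes (0.815). CBDL 4 was the lowest ligated liver for Top2a (0.686) and Mki67 (0.627). The label of sham 1 was not questioned here, and values with and without it stand beside the mouse results.

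The effect of the bile acid mix differed with a drug present, by the interaction test in limma, for the named genes. With atazanavir the interactions were -1.16 for CCNB1, -1.06 for CDC20, -1.06 for CDC25C and -1.03 for KIF20A on the log2 scale. With cyclosporin A they were -1.75 for PBK, -1.50 for ASPM, -1.16 for AURKA and -1.10 for DLGAP5. Over the 35 genes 10 passed with atazanavir, against 7.29% of all genes negative, and 6 with cyclosporin A, close to the 15.0% of all genes. With the mean of all probe sets CDC25C and ASPM missed the threshold (adjusted p = 0.069 and 0.062). All groups are of 3 arrays, and in each of these genes the change with the mix was more negative with the drug than without it. For CDC25C the mix alone gave a difference of 0.06, so only the change with atazanavir was a fall.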

How the results depend on the processing

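Counts of genes past the threshold stayed within 1.5 times the reported count in the alternatives run, except the following and some counts with single arrays left out, given as ranges. For the mix against control (3), the count was 6 with the mean of all probe sets, 5 with quantile normalisation, 6 without the dimmest 1 in 3 genes and 15 in the fit on the 2 groups alone. For nefazodone with the mix against nefazodone (8), it was 13 without the dimmest 1 in 3 genes and 3 in the fit on the 2 groups alone. For the interaction with nefazodone (0), it was 1 with quantile normalisation, 1 without the dimmest 1 in 3 genes and 1 with trend and robust settings. Leaving out single arrays gave 23 to 28 genes for ligation, 2 to 3 for the mix, 25 to 27 for atazanavir, 33 for cyclosporin A, 32 for nefazodone, 28 to 31, 15 to 21 and 4 to 13 for the mix added to atazanavir, cyclosporin A and nefazodone, 3 to 7, 33 to 34 and 32 for atazanavir, cyclosporin A and nefazodone with the mix against the mix, 33 for each of the other drugs against atazanavir, 29 for nefazodone against cyclosporin A, and 6 to 12, 5 to 8 and 0 to 3 for the 3 interactions. Of these, counts beyond 1.5 times were 4, 5 and 13 for the mix added to nefazodone (8), 3, 4 and 5 for atazanavir with the mix against the mix (8), 6 for the atazanavir interaction (10) and 1 and 3 for the nefazodone interaction (0). With the replicate block the counts were 25 for ligation, 4 for the mix, 27 for atazanavir, 33 for cyclosporin A, 32 for nefazodone and 10 for the mix added to nefazodone, and the block changed no call of a named gene. In the mouse the numbers are not known to pair samples (r from -0.219 to 0.092). In every HepaRG group, array 3 had the highest and array 2 the lowest mean level over the hepatocyte markers. Same-numbered HepaRG arrays thus shared a difference also outside the comparisons with r over 0.1. For atazanavir against control each array deviated most like its own number, with a lowest r of 0.074. The main fit did not model this. For the 108 named differences, 1400 values under alternatives kept direction and side of the threshold, 22 lost the call, 10 gained it, and 1 turned direction, Tpx2 at 0.13 with the mean of all probe sets, where the cause was not tested. RMA values and 3 arrays a group limit precision, and for dim genes the level is a bound set by background.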
